A study of Strongylocentrotus purpuratus with 17 samples.

Results

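Transcriptional regulatory elements were followed at 3 cell cycle genes of the purple sea urchin, Strongylocentrotus purpuratus, through embryonic development. The genes were Cdc6, Chk1 and cdk4. An element belonged to a gene when its midpoint lay in the annotated gene or within 10 kb of it, called its neighbourhood here. By this rule 32 of the 128949 elements listed over 4 stages belonged to the 3 genes, out of 30064 genes that could be placed on the genome. Elements were listed from PRO-seq, in which RNA polymerases engaged on the DNA run on in isolated nuclei and label the RNA they make. The lists hold peaks of dREG, a classifier that recognises promoters and enhancers from their paired divergent transcription. The compared embryos were whole and wild by their labels, with no treatment or mutation named, and were grown at 15 °C. By their titles they were 8 h old (2 libraries of 1 biological replicate), 12 h old (4 libraries of 3 replicates), 20 h old (5 libraries of 4 replicates) and 72 h old (2 libraries of 2 replicates). The tissue field of the labels names an 8 h hatching blastula for every library, so the ages rest on the titles.

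Cells copy their DNA once per division because origins of replication are licensed only before S phase. Cdc6 works at that step, loading the MCM helicase onto origins together with the origin recognition complex and Cdt1. Chk1 is a checkpoint kinase that ATR activates at stalled or damaged replication forks and that holds back entry into mitosis. cdk4 is the cyclin D-dependent kinase that phosphorylates the retinoblastoma protein in G1. In sea urchin embryos the early cleavage divisions are fast and draw on maternal stores, and cell cycles lengthen as the blastula forms.

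The libraries of a stage were combined into 1 list, which holds positions and neither scores nor read numbers. No value below therefore has a replicate error, no test between stages was made and the depth behind an element is unknown. The 8 h, 12 h, 20 h and 72 h lists held 56158, 30570, 37796 and 4425 elements, so the length of the list differed between stages along with the numbers at each gene. Per the labels, the libraries of 12 h and 20 h embryos had been used before, in an earlier study. The gene annotation used here gave a start and an end for each gene but no strand and no exons. The ends of a gene are therefore called its low and high end by coordinate, and which of them holds the promoter was not determined. The annotation also named no scaffolds, so genes were placed on 21 scaffolds by matching their ends to the 8 h elements. Cdc6 and Chk1 came out on the scaffolds given for them beforehand. With the 100 genes on each side of Chk1, the 20 h list alone matched another scaffold better, while the 8 h, 12 h and 72 h lists matched the one used. In whole embryos, fewer cells of a type and less RNA per cell cannot be told apart.

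The 3 genes held most elements at 8 h and fewest at 72 h. In 117 kb of neighbourhood they had 16 elements in the 8 h list, 8 in the 12 h list, 6 in the 20 h list and 2 in the 72 h list. All 3 genes had at least 1 element at 8 h, 12 h and 20 h, where 86.7%, 71.2% and 71.3% of 24774 protein-coding genes did. At 72 h this held for Chk1 alone of the 3, against 21.9% of protein-coding genes. Per 10 kb, the 3 neighbourhoods held 1.36, 0.68, 0.51 and 0.17 elements in these lists. The same density over all protein-coding genes was 0.71, 0.43, 0.52 and 0.076. Summed over the 3 neighbourhoods, the density was thus the higher one at 8 h and 12 h, and at 20 h both densities were close. The higher density came from Cdc6, with 1.41 per 10 kb at 8 h and 1.06 at 12 h, and Chk1, with 2.19 and 0.97. The neighbourhood of cdk4 held 0.63 and 0.21 at these ages, less than over all protein-coding genes. The summed 72 h value of 0.17 rested on a pair of neighbouring elements at Chk1. With elements 100 bp or less apart merged, it was 0.085 per 10 kb at the 3 genes and 0.075 over all protein-coding genes. Of every 10000 listed elements, 2.85 lay at the 3 genes at 8 h (95% Clopper-Pearson interval 1.63 to 4.63), 2.62 at 12 h (1.13 to 5.16), 1.59 at 20 h (0.58 to 3.45) and 4.52 at 72 h (0.55 to 16.3). These intervals cover counting error only and treat elements as independent, although many regions were called at several stages. They overlapped between all stages, but they are not a test between stages. With so few elements, no change in the share of the list is claimed. With every list cut to its 4425 widest elements, the length of the 72 h list, the 3 genes had 1, 2, 1 and 2 elements. The narrowest element kept was 1240 bp at 8 h, 1100 bp at 12 h and 20 h, and 260 bp at 72 h. The larger number at 8 h was not seen there. However, the cut removed most 8 h elements and no 72 h element, so it cannot compare the stages on equal terms.

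**Figure D1:**
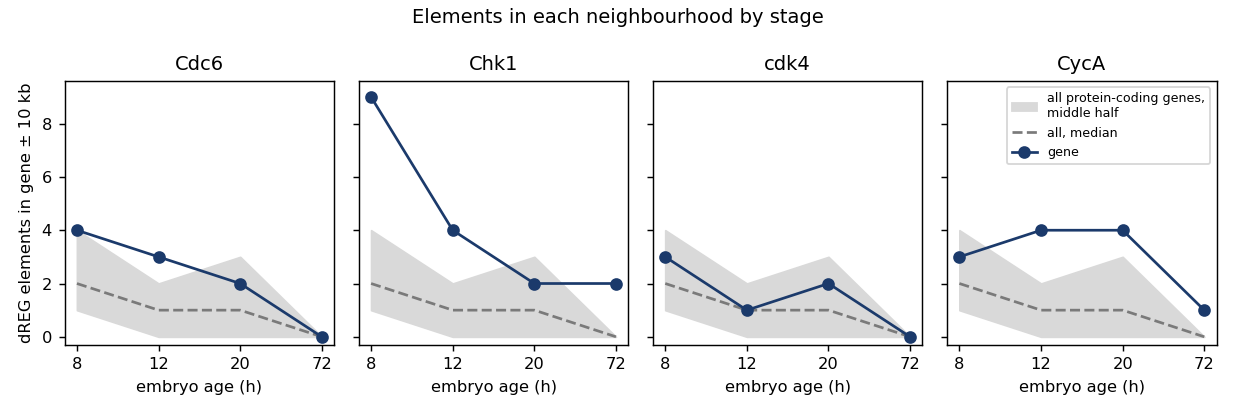
Number of dREG elements in the gene and 10 kb either side (vertical axis) at the 4 embryo ages (horizontal axis, evenly spaced) for Cdc6, Chk1, cdk4 and the cyclin gene CycA. Dark points are the gene, the grey band the range between the quartiles of 24774 protein-coding genes and the dashes their median. Chk1 starts at 9 elements, above the band, and meets Cdc6 and cdk4 at 2 elements at 20 h.

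Cdc6, the origin licensing factor (gene 373248), lay on scaffold NW_022145613.1 from 39042539 to 39050971 of Spur_5.0, a gene of 8433 bp. Its neighbourhood held 4, 3, 2 and 0 elements at 8 h, 12 h, 20 h and 72 h, each stage holding fewer than the one before. The element called at 12 h and not at 20 h lay inside a neighbouring gene, LOC105446195. The order depended on the window: Cdc6 had 1, 0, 0 and 0 in the gene body and 2, 1, 1 and 0 with 5 kb on either side. With 20 kb it had 7, 5, 3 and 1. Of protein-coding genes 26.4% had at least 4 elements at 8 h, 21.3% at least 3 at 12 h and 46.9% at least 2 at 20 h. Its neighbourhood was short, and per kb 10.8% of genes were as dense at 8 h, 8.72% at 12 h and 29.7% at 20 h. Fewer elements at 12 h than at 8 h and fewer again at 20 h than at 12 h, the order seen at Cdc6 and Chk1, occurred in 9.77% of protein-coding genes. Among the 2825 protein-coding genes that also had 4 elements at 8 h, 51.1% had 2 or fewer at 20 h and 67% had none at 72 h.

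All elements of Cdc6 but 1 lay outside the gene, on its low side. The element nearest to the gene body was called at 3 stages, spanning 39040671 to 39041670 at 8 h, 39040691 to 39042170 at 12 h and 39040681 to 39041660 at 20 h. Its outer edge moved by at most 20 bp between stages, while its inner edge lay 500 bp closer to Cdc6 at 12 h than at 8 h. The element stopped 869 bp short of the low end of Cdc6 at 8 h, 369 bp at 12 h and 879 bp at 20 h. Its width was 1000, 1480 and 980 bp, and 3.81% of the 12 h list was as wide or wider, against 16.7% of the 8 h list and 17.4% of the 20 h list.

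This shift in 1 edge decided whether Cdc6 counted as having an element at a gene end, meaning within 500 bp of either end. It had one at 12 h and not at 8 h, as did 2.74% of protein-coding genes, and lost it at 20 h, as did 5.13%. The loss was seen at 1272 of the 9818 genes with such an element at 12 h. Among protein-coding genes, 1.57% had such an element in the 12 h list and in no other. With a window of 1000 bp, Cdc6 had a gene-end element at 8 h, 12 h and 20 h alike, with 54.5%, 42.9% and 46% of protein-coding genes.

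The other elements of Cdc6 lay at a neighbouring gene or were called at 8 h alone. An element at 39036851 to 39037550 at 8 h, called again at 12 h and 20 h, covered the high end of LOC105446195, a protein-coding gene 5093 bp away on the low side. A further one inside that neighbour, at 39035651 to 39036180 at 8 h, was called at 8 h and 12 h. The single element inside Cdc6, at 39044841 to 39045690, was called at 8 h alone. No element lay on the high side of Cdc6 within 10 kb at any of the 4 stages.

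**Figure D2:**
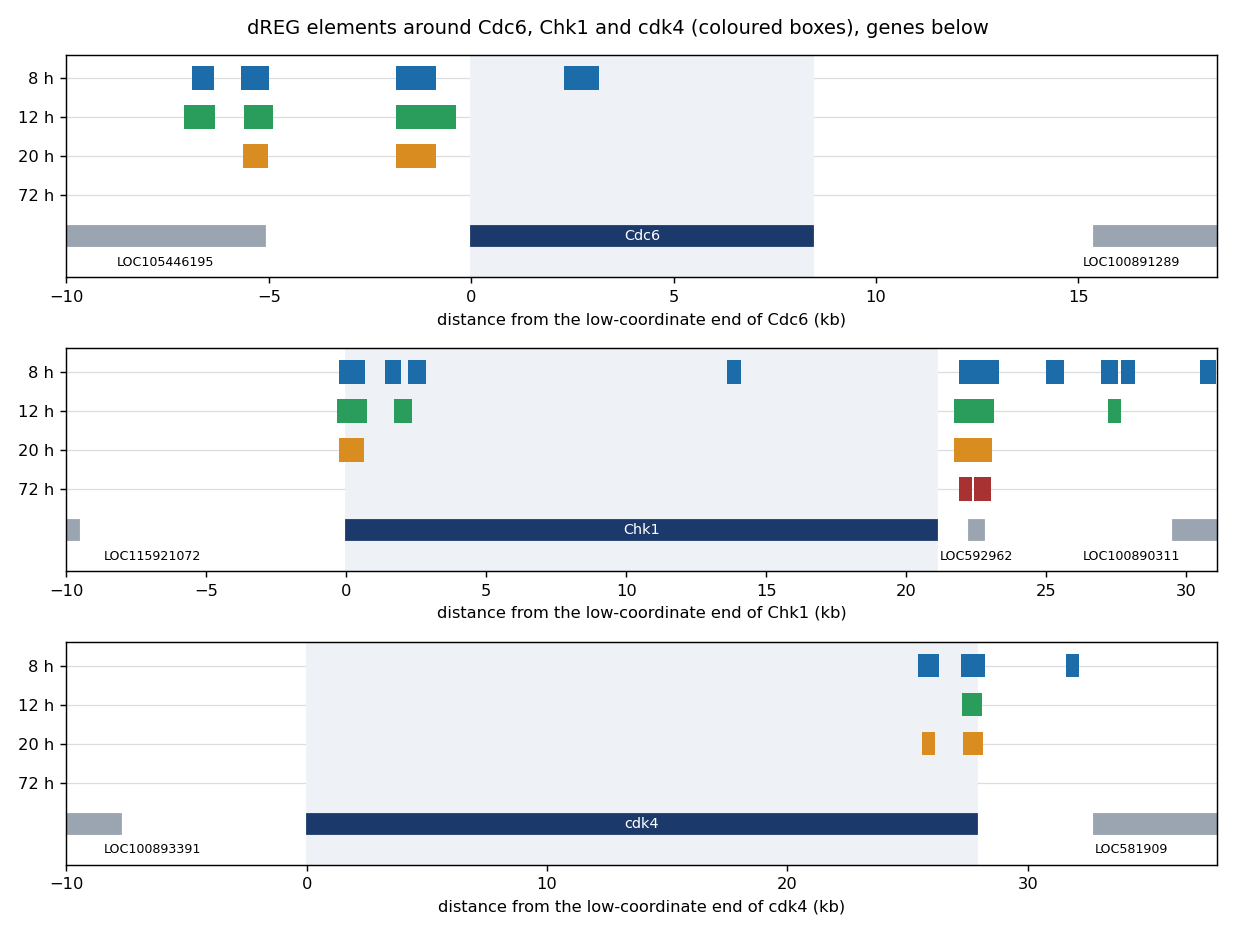
Elements at 8 h, 12 h, 20 h and 72 h (coloured boxes, 1 row per stage) against distance from the low-coordinate end of each gene in kb, with the gene in dark blue and neighbouring genes in grey below. Elements of Cdc6 gather on its low side, those of Chk1 at its low end and just beyond its high end, and those of cdk4 on both sides of its high end. The 12 h element next to Cdc6 reaches to 369 bp from the gene.

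Chk1, the checkpoint kinase (gene 592974), lay on NW_022145594.1 from 34604768 to 34625876, a gene of 21109 bp. It had 9, 4, 2 and 2 elements over the series of 8 h, 12 h, 20 h and 72 h. At 8 h it ranked high, as 1.2% of protein-coding genes had 9 or more, and 1.51% were as dense in elements per kb. At 12 h 9.65% of genes had 4 or more, and at 20 h 46.9% had 2 or more, so that Chk1 was then near the middle of the catalogue. At 72 h 4.11% had 2 or more. Genes with the same number at 8 h give a second comparison. Of the 133 protein-coding genes with exactly 9 elements at 8 h, 56.4% had 4 or fewer at 12 h, 11.3% had 2 or fewer at 20 h and 15.8% had 2 or more at 72 h. Their median was 4 elements at 12 h, 6 at 20 h and 1 at 72 h, while Chk1 had 4, 2 and 2. The number at Chk1 at 72 h was 1 when elements 100 bp or less apart were merged, or those under 500 bp left out.

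At Chk1, 2 regions were called at 3 or more stages. The first covered its low end, at 34604501 to 34605430 at 8 h, 34604431 to 34605500 at 12 h and 34604511 to 34605390 at 20 h. Its width of 930, 1070 and 880 bp was reached by 20.3%, 16% and 23.3% of the elements of those lists. It was not called at 72 h. Chk1 thus had a gene-end element at 8 h, 12 h and 20 h and not at 72 h, a pattern shared with cdk4 and with 21.5% of protein-coding genes.

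The second lay beyond the high end of Chk1, over LOC592962, a short protein-coding gene that starts 1135 bp away. It spanned 34626651 to 34628080 at 8 h, 34626451 to 34627900 at 12 h and 34626451 to 34627810 at 20 h. With widths of 1430, 1450 and 1360 bp it was among the widest 4.28%, 4.35% and 4.64% of its lists. At 72 h the same stretch held a pair of elements, 34626661 to 34627120 and 34627181 to 34627800, of 460 and 620 bp. They were the only elements at any of the 3 genes at 72 h. They came no closer than 785 bp to Chk1, and each covered an end of LOC592962.

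The remaining 6 regions of Chk1 were called at 8 h, and at no stage after 12 h. Inside the gene these were a pair at 34606131 to 34606700 and 34606961 to 34607600 at 8 h, and 1 at 34618371 to 34618860. At 12 h a single element, 34606461 to 34607110, bridged the gap of that pair, sharing 240 and 150 bp with its members. On the high side, 4 narrow elements of 510 to 620 bp were called between 34629771 and 34635840 at 8 h. Of these, 1 was met again at 12 h, where it was 470 bp wide. As at Cdc6, 1 flank was bare: no element lay within 10 kb on the low side of Chk1 except the one across its end.

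The G1 kinase gene cdk4 (gene 373289) lay on NW_022145612.1 from 27418980 to 27446870 and was the longest of the 3, with 27891 bp. It held 3, 1, 2 and 0 elements at 8 h, 12 h, 20 h and 72 h. It was the only one of the 3 with more elements at 20 h than at 12 h, a difference of 1 element, as in 33.5% of protein-coding genes. In the gene body alone and with 5 kb on either side it likewise had 1 at 12 h and 2 at 20 h. With 20 kb it had 4 at both ages, and with 50 kb 5. Its numbers lay near the middle of the catalogue. At 8 h 44.3% of protein-coding genes had at least 3, at 12 h 71.2% had at least 1 and at 20 h 46.9% had at least 2. Per kb it was close to the middle, with 52.9% of genes as dense at 8 h, 67.3% at 12 h and 48% at 20 h. Among the 4435 protein-coding genes that also had 3 elements at 8 h, 41.1% had 1 or none at 12 h and 72.9% had none at 72 h.

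Of the 3 regions of cdk4, 1 lay across its high end, 1 inside the gene and 1 beyond that end. The one across the end spanned 27446211 to 27447200 at 8 h, 27446231 to 27447070 at 12 h and 27446281 to 27447110 at 20 h, with widths of 990, 840 and 830 bp. The 12 h element shared 840 bp with the 8 h one, and the 20 h element 790 bp with the 12 h one. A second element inside the gene was called at 8 h (27444421 to 27445280, 1590 bp from the high end) and again at 20 h (27444571 to 27445120, 1750 bp from it) but not at 12 h. It was the only region of the 3 genes that was missing from 12 h and called on both sides of it. The third, at 27450551 to 27451130, was called at 8 h alone. The low end of cdk4 was at least 13370 bp from the nearest element at 8 h, 12 h and 20 h. At 72 h the nearest element was 83891 bp from the high end and 111781 bp from the low end.

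**Figure D3:**
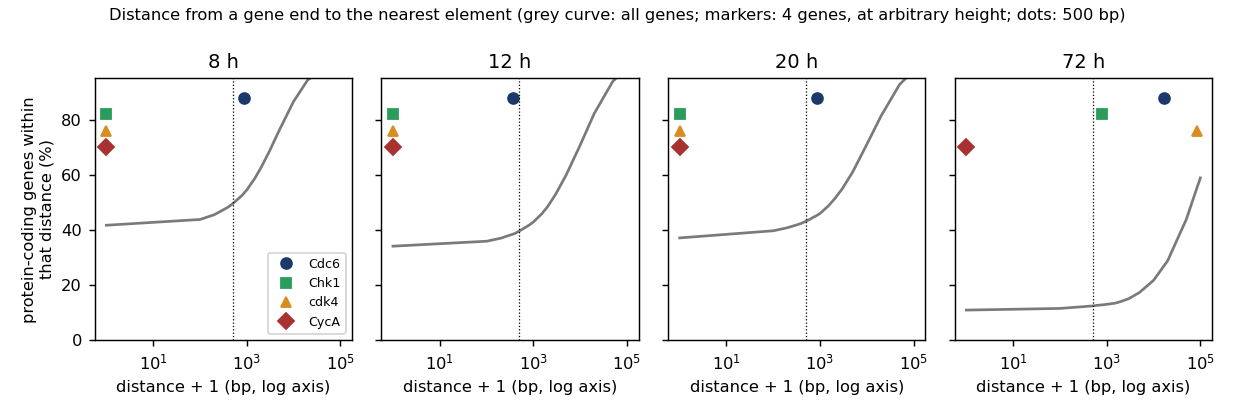
Share of 24774 protein-coding genes (vertical axis, %) with an element within a given distance of either gene end (horizontal axis, distance + 1 bp, log scale), as grey curves, 1 panel per stage. Markers give the distance for Cdc6, Chk1, cdk4 and CycA, their height has no meaning, and the dotted line is at 500 bp. Chk1 and cdk4 are at 0 bp at 8 h, 12 h and 20 h, while Cdc6 is at 869, 369 and 879 bp.

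The stages at which an element was called were nested at most regions. Joined where they overlapped, the 32 elements made 15 regions. All 15 were called at 8 h, as were 73.3% of the 70137 regions on the same 21 scaffolds. Of the 15, 6 were called at 8 h alone (34.3% of all regions), 3 at 8 h and 12 h (8.65%), 1 at 8 h and 20 h (7.98%), 4 at 8 h, 12 h and 20 h (17%), and 1 at all 4 stages (5.09%). Regions called at 1 stage made up 40% of the 15 (Clopper-Pearson 95% interval 16.3 to 67.7), and 58.4% of all regions, a value inside the interval. This interval treats regions as independent, although they lie at only 3 genes, and it is not a test. At 12 h all 3 genes had fewer elements than at 8 h, like 59.1% of protein-coding genes, while 31.7% kept their number. At 20 h Cdc6 and Chk1 had fewer than at 12 h, like 22.5%, while the number was equal at both ages in 44% and at none of the 3. With 5 kb on either side, Cdc6 had 1 element at both ages. The dip of cdk4, fewer at 12 h and then more at 20 h, was shared by 25.1%. With 20 kb or 50 kb on either side, cdk4 had as many elements at 20 h as at 12 h. At 72 h Cdc6 and cdk4 had fewer than at 20 h, like 66.7%, and Chk1 had as many, like 32.9%, while 0.327% of protein-coding genes had more. With elements 100 bp or less apart merged, or with those under 500 bp left out, Chk1 had 1 element at 72 h and 2 at 20 h, and so had fewer. Both Cdc6 and cdk4 had at least 1 element at 20 h and none at 72 h, like 49.6%. That was 12288 of the 17666 genes with an element at 20 h. The shares given for 72 h against 20 h also include the 28.7% of genes with no element at 20 h.

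Gene-end elements were counted in the same way. Of the 3 genes, 2, 3, 2 and 0 had a gene-end element over the series of ages. The shares of protein-coding genes were 49.5%, 39.6%, 43.2% and 12.4%. With a window of 200 bp, 2, 2, 2 and 0 of the 3 had one, against 45.5%, 37%, 40.8% and 11.9% of protein-coding genes. With 1000 bp it was 3, 3, 3 and 1, against 54.5%, 42.9%, 46% and 13%. The larger number at 12 h was thus seen at 500 bp alone, the window used below. Of the 3, neither gene with a gene-end element at 8 h lost it by 12 h, where 12.6% of protein-coding genes did. That was 3124 of the 12263 genes with one at 8 h. All 3 had one at 12 h, so none could gain one by 20 h, where 8.67% of protein-coding genes did. At 72 h Chk1 and cdk4 had lost theirs, like 31% of protein-coding genes. That was 7675 of the 10694 genes with one at 20 h, so such a loss was usual. By 72 h 0.23% of protein-coding genes had gained one, none of the 3 among them.

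At 8 h, elements of regions called again later had the larger median width. The 10 elements of 8 h in regions called at a later stage too had a median width of 780 bp (530 to 1430 bp). The 6 in regions of 8 h alone had a median of 585 bp (490 to 850 bp). Over the 21 scaffolds the medians were 770 and 550 bp, an order in the same direction. The 8 h list as a whole had a median of 640 bp, and 8 of the 16 elements at the 3 genes were at or above the median of their list. At 12 h this was 6 of 8 and at 20 h 4 of 6. Elements covered 10.1%, 6.33%, 4.44% and 0.92% of the neighbourhoods over the series of ages.

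**Figure D4:**
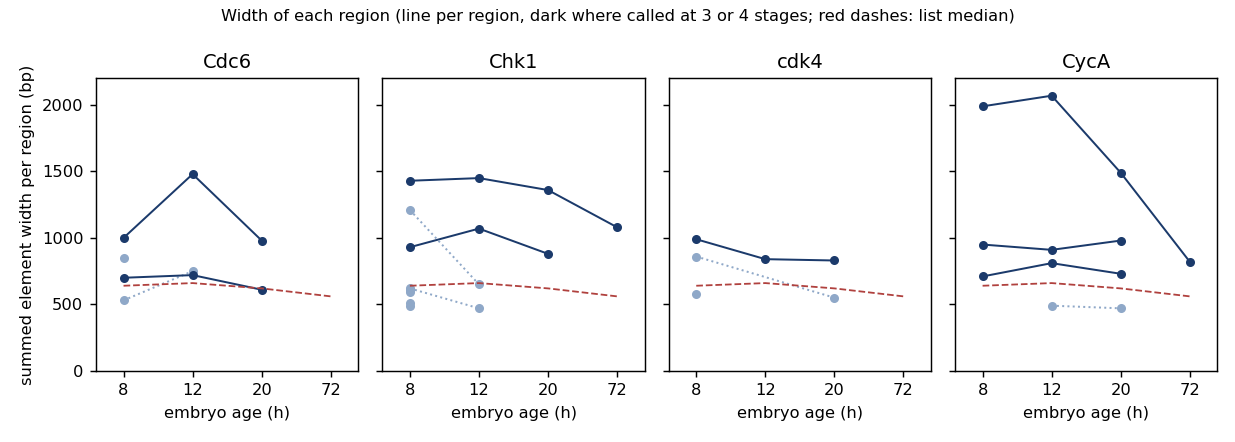
Summed width in bp of the elements of each region (vertical axis) at each stage (horizontal axis, evenly spaced) for Cdc6, Chk1, cdk4 and CycA. Dark lines are regions called at 3 or 4 stages, light points those called at 1 or 2, and red dashes the median element width of each list. The dark lines run above or near the dashes, and the region next to Cdc6 is widest at 12 h with 1480 bp.

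Of 76 cell cycle genes looked for, 4 could be matched by name in the annotation, in which 99% of the placed protein-coding genes carry only a locus number. The fourth was CycA, which encodes cyclin A, the partner of the kinases that drive S phase and entry into mitosis. CycA had 3, 4, 4 and 1 elements at 8 h, 12 h, 20 h and 72 h and a gene-end element at all 4 stages. Its high end was covered by elements of 1990, 2070, 1490 and 820 bp. At 12 h 0.399% of the list was as wide or wider. Unlike Cdc6, Chk1 and cdk4, CycA gained in number by 12 h relative to 8 h, like 9.2% of protein-coding genes, through an element at 17648181 to 17648670 of NW_022145596.1 that was not called at 8 h. Measured by the summed difference in element number over the 4 stages among these 4 genes, Cdc6 and cdk4 were most alike, with a difference of 3. Chk1 was closest to Cdc6 with 8, and CycA was closest to Cdc6 with 5.

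In wider windows the number at Cdc6 came close to that at Chk1, while cdk4 stayed lower at 8 h. With 50 kb on either side, Cdc6 had 13, 7, 3 and 1 elements at 8 h, 12 h, 20 h and 72 h, Chk1 had 12, 6, 3 and 2, and cdk4 had 7, 5, 5 and 0. At Cdc6 5, 3, 1 and 1 of these overlapped transfer RNA genes, while none did at Chk1 or cdk4. Protein-coding genes averaged 7.88, 4.56, 5.61 and 0.75 elements in that window. Inside the gene body alone, Cdc6 had 1, 0, 0 and 0 elements, Chk1 4, 2, 1 and 0, and cdk4 2, 1, 2 and 0, against means of 1.07, 0.63, 0.78 and 0.086. None of the 3 gene bodies thus held an element at 72 h.

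**Figure D5:**
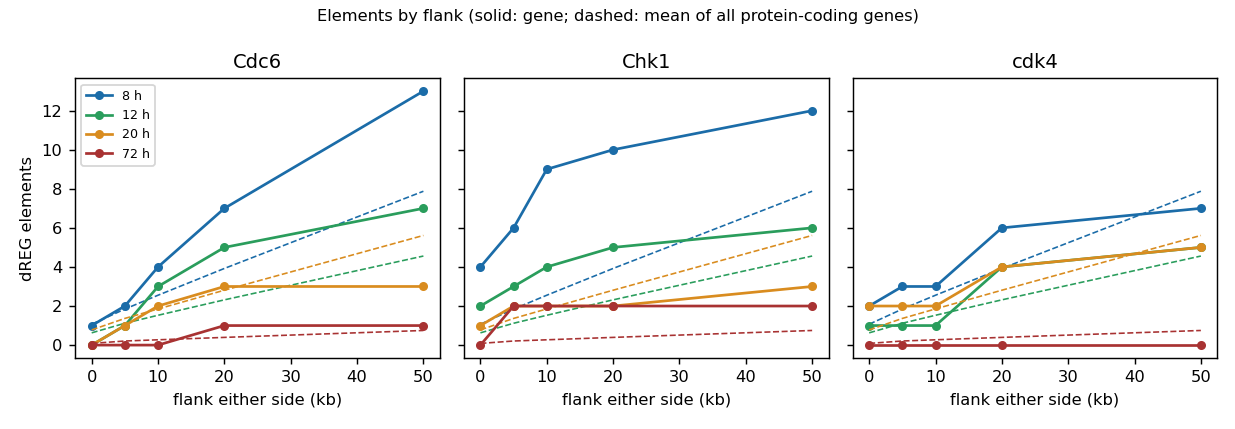
Number of dREG elements (vertical axis) in the gene plus a flank of 0 to 50 kb on either side (horizontal axis) for Cdc6, Chk1 and cdk4, in solid lines coloured by stage, with the mean of all protein-coding genes dashed. At 50 kb Cdc6 and Chk1 have 13 and 12 elements at 8 h, above the mean of 7.88, and cdk4 has 7. Of the 13 at Cdc6, 5 overlap transfer RNA genes. The 12 h and 20 h lines of cdk4 coincide from 20 kb on.

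Marker genes served to describe the embryos' lists. SpAN and blimp1/krox, taken here as early blastula markers, together had 15, 14, 14 and 6 elements at 8 h, 12 h, 20 h and 72 h. SpAN encodes an astacin-type protease and blimp1/krox a zinc finger transcription factor. The skeletogenic genes SM50, msp130 and Alx1 had 11, 7, 14 and 1, and the pigment cell gene gcm had 6, 3, 6 and 0. The gut genes Endo16, FoxA and GATAe had 10, 6, 21 and 2. The coelomocyte genes AMAS2 and SRCR12 had 9, 8, 4 and 1. SpHE of the early blastula list and PKS1 of the pigment cell list were not matched by name. All of these lists had members with elements at 8 h, 12 h and 20 h. At these ages 86.7%, 71.2% and 71.3% of all protein-coding genes had at least 1 element. An element at a marker gene thus did not set a stage apart, and the part of cell makeup in the numbers at Cdc6, Chk1 and cdk4 was not tested.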

How the data were processed

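PRO-seq libraries of whole embryos were analysed by the authors into 1 deposited list of dREG peaks per stage, with scaffold, start and end of each element on the Spur_5.0 assembly (Sp 5.0 per the submitters' processing notes). No aligner or caller setting is known here, nor how libraries were combined: the sources used give none. The deposited positions have no score, fall on steps of 10 bp and do not overlap within a list. The 4 quick PRO-seq libraries were not analysed here.

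Genes came from the RefSeq annotation of Spur_5.0, whose 30064 placed genes fell into 21 runs of at least 900 genes, each given to the scaffold with the most gene ends within 500 bp of an 8 h element. That was 18.8% to 33.6% of them, 1.66 to 3.73 times the next best scaffold. Elements were counted by midpoint, and joined across stages on an overlap of at least 1 bp. With 1 list per stage there is no replicate error and no test. Intervals are exact Clopper-Pearson (95%). Counting was tested on simulated data with known answers, and 300 of 300 counts and 300 of 300 distances were recovered. Python 3.11.15, pandas 2.3.3, numpy 2.4.6 and matplotlib 3.10.9 were used. The rule for names was Cdc6, Chk1 and cdk4 always, and the cell cycle genes of a list that the annotation names. The members and lists were chosen with earlier results of these data known. Alternatives were other flanks, gene-end windows, overlaps and subsets of each list.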

Additional observations from a re-analysis of the deposited data

How the results depend on the processing

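The 164 values recomputed under alternatives were all counts, which cannot change sign. Of them, 114 stayed equal or moved by at most 1.5 times and 50 moved further. The window set most of these. At 8 h, 12 h, 20 h and 72 h the 3 genes together had 7, 3, 3 and 0 elements in gene bodies alone, of which Cdc6 had 1, 0, 0 and 0 and Chk1 4, 2, 1 and 0. With 5 kb on either side they had 5 at 12 h, and Cdc6 2, 1 and 1 at 8 h, 12 h and 20 h. With 20 kb they had 14 at 12 h, Cdc6 7 at 8 h, 5 at 12 h and 1 at 72 h, and cdk4 6, 4 and 4 at 8 h, 12 h and 20 h. With 50 kb they had 32, 18 and 11 at 8 h, 12 h and 20 h, Cdc6 13 at 8 h, 7 at 12 h and 1 at 72 h, and cdk4 7, 5 and 5. Cutting every list to its widest 4425 elements left 1, 2 and 1 at 8 h, 12 h and 20 h, of which Cdc6 had 0, 1 and 0, Chk1 1, 1 and 1, and cdk4 0, 0 and 0. The order with most elements at 8 h was lost there, but the narrowest width kept differed between the stages. Merging elements 100 bp or less apart, or keeping those of at least 500 bp, left 1 element at 72 h, at Chk1. With a gene-end window of 1000 bp, 1 gene had a gene-end element at 72 h. Requiring 50% of both elements to overlap left 11 regions called at 1 stage and 0 called at 4. The cause was not tested where the construction of the alternative does not show it. Leaving out a replicate was not possible in pooled lists. No paired analysis was possible because each stage is 1 pooled list and the results come from no test. The depth behind the lists is unknown, so that an element missing from a list does not show that transcription there was absent.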

Other observations

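Elements further from Cdc6 included a group at transfer RNA genes. Within 50 kb of Cdc6, 5 of 13 elements at 8 h, 3 of 7 at 12 h, 1 of 3 at 20 h and the only 1 at 72 h overlapped genes for a valine transfer RNA (TRNAV-CAC). Transfer RNA genes are transcribed by RNA polymerase III. No element within 50 kb of Chk1 or cdk4 overlapped a transfer RNA gene at any of the 4 stages. The share of all listed elements that overlap transfer RNA genes was not determined. Whether the numbers at the 3 genes are unusual is therefore not known. The element at 72 h, from 39068031 to 39068450, lay 17.1 kb beyond the high end of Cdc6, inside LOC100891289, and was the nearest to Cdc6 in that list. An element overlapping it was called at 8 h, 12 h and 20 h too, 17 kb, 16.9 kb and 17.1 kb from Cdc6.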
